A study of Mus musculus with 2 samples.

Results

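The cluster of miR-191 and miR-425 consists of a pair of miRNA hairpins, Mir191 and Mir425, that lie close together on mouse chromosome 9. Each hairpin can give a mature miRNA from either side, called the 5p and the 3p arm. Its 4 mature miRNAs, mmu-miR-191-5p, mmu-miR-191-3p, mmu-miR-425-5p and mmu-miR-425-3p (the species prefix is left out below), were looked up by name, and all 4 were found among the 2083 entries of the table, 677 of which carry names of known mouse miRNAs. The members were chosen by name and position, with earlier results of these data known. The small RNA came from exosomes, vesicles released by cells, that were shed into culture medium by pancreatic islets of C57BL/6 mice. One group of mice ate a normal chow diet with 4% fat (NCD), and the other a high-fat diet with 60% fat (HFD). Per the labels' protocols, both sets of islets were kept for 1 week in medium freed of serum exosomes, and vesicles were spun down from supernatants collected daily. The sources used here do not give the age or sex of the mice, the length of feeding, or the number of mice whose islets went into each library. There is 1 library per diet, so every difference below is between these 2 libraries. No spread between animals can be estimated and no test was made between the diets.

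A primary transcript that holds several hairpins is cut in the nucleus into single hairpins, and each hairpin is then cut to a short duplex. One strand of the duplex, the guide, is usually kept in an Argonaute protein and pairs through its seed with messenger RNAs. The other strand, the passenger, is mostly degraded. miR-191-5p is found in most tissues and blood cells. It and miR-425-5p are often used as references when miRNAs of serum, plasma or vesicles are quantified, because they are abundant and thought to vary little. In mouse erythroid cells a fall of miR-191 accompanies loss of the nucleus, and in human cells miR-425-5p represses the gene of atrial natriuretic peptide.

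The mature sequences are shown because arms and seeds set which counts belong together. They are RefSeq sequences on GRCm38.p6, written from 5′ to 3′, with the seed, bases 2 to 8, in capitals.
miR-191-5p: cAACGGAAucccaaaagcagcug
miR-191-3p: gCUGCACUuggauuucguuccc
miR-425-5p: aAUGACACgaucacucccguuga
miR-425-3p: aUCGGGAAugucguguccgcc

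The 4 seeds differ from each other, so the members form 4 seed groups although they come from a single locus. Among 1679 mature mouse sequences in the RefSeq table, the seeds of miR-191-5p, miR-191-3p and miR-425-3p occurred in no other miRNA. The seed of miR-425-5p occurred once more, in miR-489-3p of chromosome 6, for which the table used here held no entry.
miR-489-3p: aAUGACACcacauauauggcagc
No member shared a run of more than 8 bases with any of the 1678 other mature sequences, a length well below that of a mature miRNA of 21 to 23 bases. Reads of these members are therefore separable by sequence from those of all other miRNAs in that table, unlike reads of miRNA families with near-identical members.

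The hairpins are given to show where the arms sit, with both mature arms in capitals. Mir191 is 74 bases long at chr9:108568319-108568392, and Mir425 is 85 bases long at chr9:108568777-108568861, both on the plus strand of GRCm38.p6.
Mir191: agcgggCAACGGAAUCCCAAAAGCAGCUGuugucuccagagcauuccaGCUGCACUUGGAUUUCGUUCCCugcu
Mir425: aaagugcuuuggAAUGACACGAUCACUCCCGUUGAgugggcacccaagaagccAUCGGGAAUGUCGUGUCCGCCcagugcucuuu

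Only 384 bases separate the hairpins, and the whole cluster spans 543 bases. The host gene depends on the annotation. In RefSeq both hairpins lie inside Dalrd3 (chromosome 9, 108567484 to 108572773), whose protein takes part in the methylation of certain transfer RNAs. In GENCODE M21 Dalrd3 begins at 108569886, which is 1024 bases after the end of Mir425, and both hairpins lie in an exon of the long non-coding RNA gene 4833445I07Rik (108567533 to 108569174, plus strand). GENCODE M21 also lists an antisense hairpin, Gm24083, across Mir191 (108568295 to 108568414, minus strand). No level of any host transcript was measured. In folds predicted with RNAfold, the Mir191 hairpin had a free energy of -35.0 kcal per mol, with 19 of 23 bases of its 5p arm paired. The Mir425 hairpin had -31.7 kcal per mol, with 14 of 23 bases of its 5p arm and 17 of 21 of its 3p arm paired.

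The libraries held 2417589 counts (NCD) and 2020831 counts (HFD). Levels are given as counts per 1000000 counts of a library (CPM), which do not scale with length. A count of 0 would allow up to 1.24 CPM in NCD and 1.48 CPM in HFD. All intervals are 95% exact intervals and cover counting error only, and reads copied by PCR were not told apart from independent molecules. The labelled tissue was checked against fixed markers. All 6 islet endocrine markers were measured, with a summed level of 87857 CPM in NCD and 91174 CPM in HFD. The 3 hepatic markers together stood higher, at 321897 and 245382 CPM, and the 4 acinar markers at 99807 and 221096 CPM. Single miRNAs carry these sums, miR-122-5p the hepatic one and miR-148a-3p, also abundant in liver, the acinar one with 99722 and 220847 CPM. The libraries thus hold abundant miRNAs that are not particular to islet cells, and miR-191 and miR-425, made by many cell types, cannot be assigned to a cell of origin. In such bulk material fewer vesicles from a cell type and less miRNA per vesicle cannot be told apart.

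miR-191-5p, the guide strand of Mir191, was the abundant member. The NCD library held 17633 counts of it and the HFD library 21097. That is 7294 CPM (interval 7186 to 7402) in NCD and 10440 CPM (10299 to 10582) in HFD. It took 0.729% of all NCD counts and 1.04% of HFD counts and was the 16th and the 15th most abundant known miRNA. The HFD level was 1.43 times the NCD level (1.40 to 1.46), a log2 ratio of 0.52 with a pseudocount of 1 CPM. The counting intervals of the libraries do not overlap, but the size is small beside the spread of miRNAs between the libraries. For 91 known miRNAs that reached 1000 counts in either library, the quartiles of the log2 ratio were -0.34 and 0.57, a range which includes miR-191-5p.

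miR-425-5p, the guide strand of Mir425, was the next in abundance. Its counts were 2488 (NCD) and 2369 (HFD), or 1029 CPM (989 to 1070) and 1172 CPM (1126 to 1220). Its ranks were 53 and 54 among known miRNAs. The ratio of HFD over NCD was 1.14 (1.08 to 1.21), a log2 ratio of 0.19, which became -0.07 when median-of-ratios size factors replaced the total count. These factors were 1 for both libraries, so that setting compares unscaled counts and does not correct for depth. The raw count was thus lower in HFD and the level per total count higher, so no direction is given for miR-425-5p.

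miR-191-3p, the passenger strand of Mir191, was rare. Its counts were 24 (NCD) and 22 (HFD), or 9.93 CPM (6.36 to 14.8) and 10.9 CPM (6.82 to 16.5). The intervals overlap almost wholly. The ratio was 1.10, and its interval from 0.586 to 2.04 allows either direction, so no direction is given at this depth. Its log2 ratio of 0.12 was below 0 with TMM factors (-0.01) and with median-of-ratios size factors (-0.11).

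miR-425-3p, the passenger strand of Mir425, was equally rare and differed most between the libraries. Its counts were 16 (NCD) and 40 (HFD), or 6.62 CPM (3.78 to 10.7) and 19.8 CPM (14.1 to 27.0). The 2 intervals do not overlap. The ratio was 2.99 (1.64 to 5.72), a log2 ratio of 1.45, so that counting error alone leaves room for a difference under 2-fold. With a pseudocount of 10 CPM the log2 ratio was 0.84, within 2-fold. It moved from rank 294 to rank 245 among known miRNAs.

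**Figure D1:**
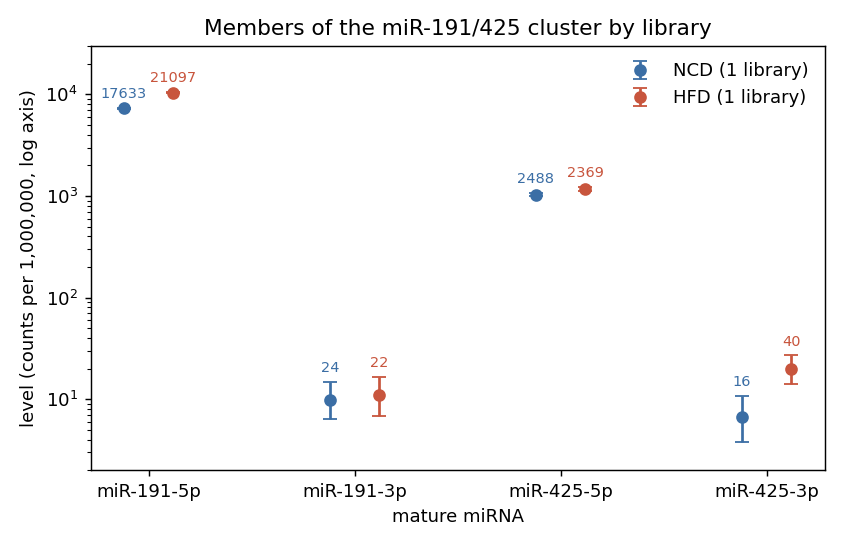
Level of each member (counts per 1000000, log axis) in the NCD and the HFD library, with 95% exact Poisson counting intervals and the raw count above each point. miR-191-5p stands at 7294 and 10440 CPM, miR-425-5p at 1029 and 1172 CPM, and both 3p arms lie under 20 CPM, with miR-425-3p the only one of the 3p arms whose intervals do not overlap.

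A miRNA was called higher or lower once its log2 ratio passed 1 in that direction, a criterion of size with no test behind it. By that rule 1 of the 4 members, miR-425-3p, was higher in HFD and 0 were lower. Among all 387 known miRNAs that reached 10 counts in either library, 25.3% were called higher and 9.56% lower, so 1 of 4 is a share near the background. Among the 97 known miRNAs whose larger count was 20 to 80, the range in which miR-425-3p falls, 30.9% were called higher. The whole counting interval of the ratio lay above 1, with the total count as the scale, for 3 of the 4 members, miR-191-5p, miR-425-5p and miR-425-3p, and for 47.5% of the 387. The median log2 ratio of the 387 was 0.33. miR-191-5p stood 0.19 above that median, miR-425-5p 0.14 below it and miR-425-3p 1.12 above it. These distances to the median for miR-191-5p and miR-425-5p were the same to 2 decimals with TMM factors and with median-of-ratios size factors, which shifted known miRNAs with at least 100 counts by a median of -0.15 and -0.26. A single factor per library shifts all log2 ratios nearly alike, so these distances could hardly change and test nothing. The split of called miRNAs was 98 higher and 37 lower with the total count, 86 and 46 with TMM factors, and 78 and 52 with median-of-ratios size factors.

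**Figure D2:**
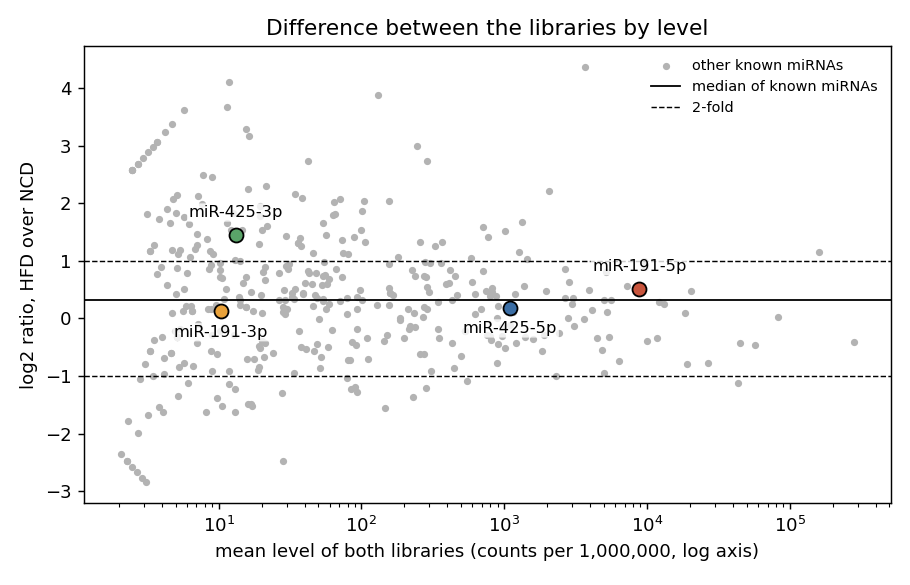
Log2 ratio of HFD over NCD against the mean level (counts per 1000000, log axis) for the 387 known miRNAs that reached 10 counts in either library. The solid line is their median of 0.33 and the dashed lines mark 2-fold. miR-191-5p (0.52) and miR-425-5p (0.19) lie on either side of the median, and miR-425-3p (1.45) is past 2-fold in a range of levels where many miRNAs are.

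In the authors' deposited table, miR-425-3p had a log2 fold change of 1.42 with an FDR of 0.0208. The authors' deposited table gave miR-191-5p a log2 fold change of 0.37 with an FDR of 0.229. For miR-425-5p the authors' deposited table gave 0.04, and for miR-191-3p -0.02, both with an FDR of 1. An FDR under 0.05 with a higher HFD level stood in the authors' deposited table for 24.0% of the 387 known miRNAs. An exact test of edgeR gave back all deposited p-values with an assumed coefficient of variation of 0.1 between replicates, with a largest difference of 6.55e-15. They therefore rest on an assumed spread and not on one measured between mice.

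The ratio between the guide strands within a library needs no scaling between libraries. In NCD there were 7.09 counts of miR-191-5p per count of miR-425-5p (6.80 to 7.39), and in HFD 8.91 (8.53 to 9.30). The HFD value was 1.26 times the NCD value (1.18 to 1.33), larger than counting error. With both arms of each hairpin summed, the ratios were 7.05 and 8.77. The unequal difference of the guide strands was common among neighbours. Of 35 pairs of successive hairpins within 10 kb on a strand, with at least 100 counts each, 22 differed more in their log2 ratios than miR-191-5p and miR-425-5p, whose ratios differed by 0.33, and 12 differed less. The median difference of the pairs was 0.46. miR-221-3p and miR-222-3p differed most, by 1.60, and miR-200a-3p and miR-200b-3p by only 0.02. Most of the pairs lie on chromosome 12. The pairs are not a complete list of neighbours, and miR-99b-5p, for instance, is in none of them. The arm that stood for a hairpin was not always its more abundant one, as with miR-485-3p. The pairs share hairpins and libraries and are a description.

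The order of the 4 members by level was the same for the guide strands in both libraries, with miR-191-5p far above miR-425-5p and both far above the 3p arms. The 3p arms stood close together. In NCD there were 1.50 counts of miR-191-3p per count of miR-425-3p (0.764 to 3.02), an interval that holds 1, so their order is not resolved. In HFD there were 0.550 (0.311 to 0.948), with miR-425-3p the higher. The HFD value was 0.370 times the NCD value (0.149 to 0.897). Within the cluster, miR-191-5p took 87.5% of counts in NCD (87.0 to 87.9) and 89.7% in HFD (89.3 to 90.1), and miR-425-5p 12.3% and 10.1%. The cluster as a whole took 0.834% of NCD counts and 1.16% of HFD counts.

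Nearly all counts of both hairpins came from the 5p arm. In the Mir191 hairpin the 3p arm took 0.136% of counts in NCD (0.0871 to 0.202) and 0.104% in HFD (0.0653 to 0.158), and these intervals overlap. That is 735 counts of miR-191-5p per count of miR-191-3p in NCD and 959 in HFD. In the Mir425 hairpin the 3p arm took 0.639% in NCD (0.366 to 1.04) and 1.66% in HFD (1.19 to 2.25), which do not overlap. The odds of a 3p count in that hairpin in HFD were 2.63 times those of NCD (1.43 to 5.04). For Mir191 the same odds were 0.766 times those of NCD (0.409 to 1.43), which allows either direction.

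The arm shares were set beside all 110 hairpins with both arms named and at least 100 counts in all. The less abundant arm had no count minimum of its own. The less abundant arm took a median of 1.78% of counts in NCD and 4.66% in HFD over these hairpins. Of the 110, 28 had a smaller minor share than miR-191 in NCD and 18 in HFD, and 37 and 42 had a smaller one than miR-425. The log2 ratio of the less abundant arm exceeded that of the more abundant arm by a median of 0.38, and by 1.26 for miR-425, a difference that 21 hairpins surpassed. Arms near 0 counts, such as miR-543-5p with 0 and 1, enter both that median and those 21. Their ratios rest largely on the pseudocount. For miR-191 the less abundant arm was 0.40 below the other. Among less abundant arms 35.5% were called higher in HFD, against 13.6% of more abundant arms. The call for miR-425-3p is thus one that many less abundant arms of these libraries share.

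**Figure D3:**
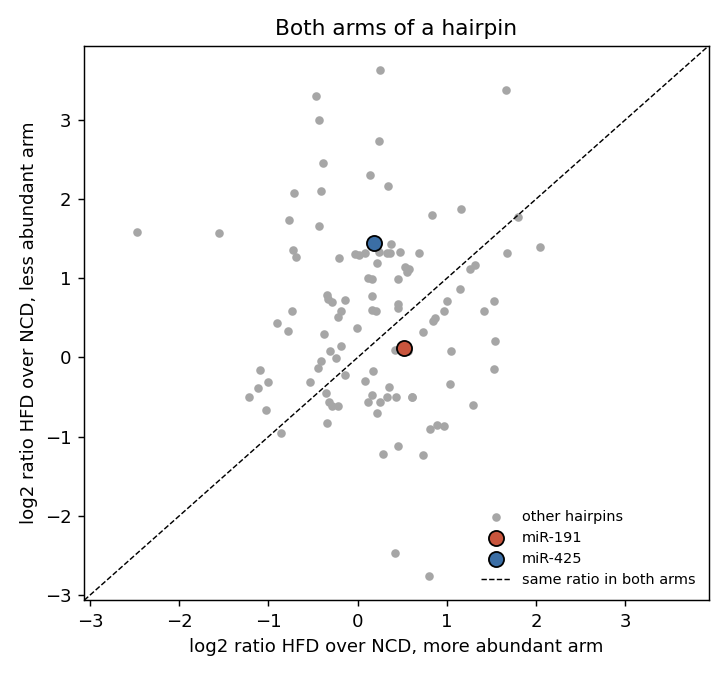
Log2 ratio of HFD over NCD of the less abundant arm against that of the more abundant arm, for 110 hairpins with at least 100 counts in all. The less abundant arm had no count minimum of its own. Hairpins on the dashed line have the same ratio in both arms. miR-425 lies above the line, with 1.45 for its 3p and 0.19 for its 5p arm, and miR-191 a little below it, with 0.12 and 0.52.

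Because both guide strands serve as references, they were set beside the other miRNAs in such use. The list of 18 names was chosen with earlier results of these data known. Of these, 17 had at least 10 counts, and miR-345-5p, with 0 and 2 counts, did not. Among the 17, 0 were called higher, 1 lower and 16 lay within 2-fold, with a median log2 ratio of 0.28 against 0.33 over all 387 known miRNAs. Of the 387, 252 lay within 2-fold, 25.3% were called higher and 9.56% lower. The 17 were not matched to the 387 by level. The one called lower was miR-423-5p, with 59627 CPM in NCD and 27541 in HFD, a ratio of 0.462 (0.457 to 0.466). let-7a-5p had a ratio of 0.585 and miR-320-3p, made without the nuclear enzyme Drosha, one of 0.680. At the other end stood miR-23a-3p with a ratio of 1.96, the red cell miRNA miR-451a with 1.87 and miR-21a-5p with 1.74.

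Among the reference miRNAs, miR-191-5p was not the one nearest to an equal level, and 5 of the 17 had a higher log2 ratio. miR-16-5p, at 128 and 185 CPM, had a ratio of 1.44 (1.24 to 1.68), whose interval holds that of miR-191-5p. miR-93-5p, at 1.38 (1.24 to 1.54), did so as well. miR-425-5p lay nearer to 1 than miR-191-5p, and 3 of the 17 lay nearer still, miR-24-3p at 1.01, miR-484 at 1.01 and miR-103-3p at 0.881. Only the intervals of miR-24-3p and miR-484 held 1. Which reference is nearest to an equal level depends on the scaling, since median-of-ratios size factors shift all log2 ratios down.

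**Figure D4:**
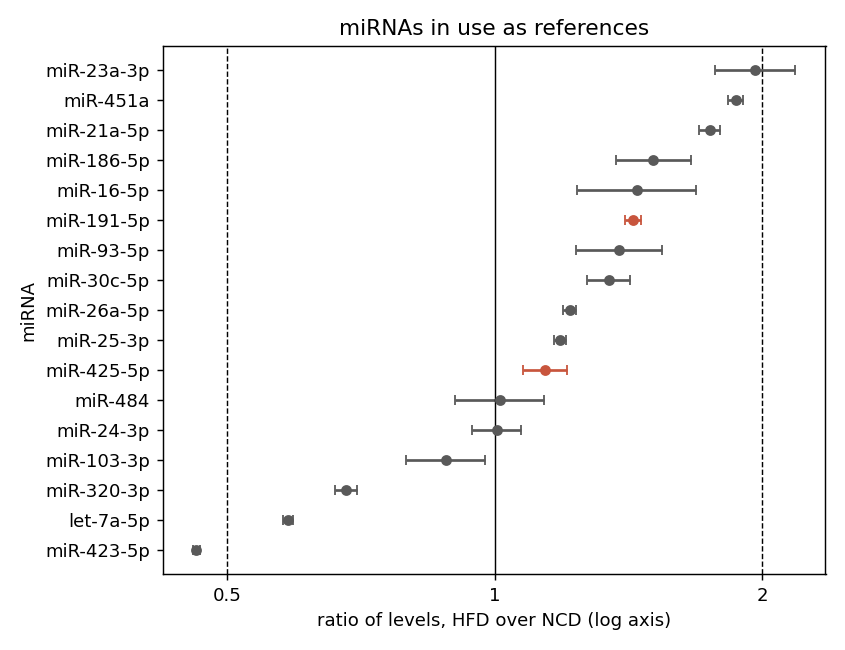
Ratio of levels, HFD over NCD (log axis), for the 17 measured miRNAs in use as references, with 95% exact counting intervals and miR-191-5p and miR-425-5p in red. The solid line marks equal levels and the dashed lines 2-fold. The ratios run from 0.462 for miR-423-5p to 1.96 for miR-23a-3p, with miR-191-5p at 1.43 and miR-425-5p at 1.14.

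The choice of miR-191-5p as the reference would change the counts of miRNAs called. With all known miRNAs expressed per count of miR-191-5p, every log2 ratio was lower by the 0.52 of miR-191-5p, and of the 387 measured 60 were called higher and 81 lower in HFD, in place of 98 and 37. The median log2 ratio was then -0.19. Relative to the islet miRNA miR-375-3p, miR-191-5p went from 0.0892 counts per count in NCD to 0.125 in HFD, a ratio of 1.41 (1.38 to 1.44). miR-425-5p went from 0.0126 to 0.0141, a ratio of 1.12 (1.06 to 1.18). These ratios need no scaling between libraries.

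By level, the neighbours of miR-191-5p were miR-543-3p and miR-451a in NCD, and miR-126a-3p and let-7c-5p in HFD. let-7c-5p had 21035 counts in HFD, within the counting interval of miR-191-5p. Among known miRNAs that reached 100 counts in either library, those whose log2 ratio was nearest to that of miR-191-5p were miR-16-5p, miR-26b-5p, let-7i-5p, miR-598-3p and miR-1839-5p, all within 0.04 of it. Nearest to miR-425-5p were miR-144-5p, miR-532-5p, miR-673-5p, miR-299a-3p and miR-15b-5p, within 0.03. With 2 libraries a pattern is a single ratio, so likeness here is a description.

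Marker miRNAs of other cell types differed between the libraries as well. The background for the counts called below is 25.3% higher and 9.56% lower among all 387 known miRNAs. The summed level of the 5 immune and platelet markers went from 1573 to 2305 CPM, a ratio of 1.47, with 4 of 5 measured, 2 called higher and 0 lower. The erythroid markers summed to 124434 and 98641 CPM, a ratio of 0.793, with 0 of 4 called. They were split, with ratios of 1.87 for miR-451a and 1.51 for miR-144-3p, whereas miR-486a-5p stood at 0.741 and miR-486b-5p at 0.722. The endothelial markers summed to 6396 and 12750 CPM, a ratio of 1.99. The acinar markers, all 4 called higher, had a ratio of 2.22, and the stromal markers had 1.11. The hepatic markers had a summed ratio of 0.762, set by miR-122-5p, whereas 2 of the 3 were called higher, miR-192-5p with 726 and 3375 CPM and miR-122-3p with 14.1 and 63.3 CPM. The islet endocrine markers had a summed ratio of 1.04, with 1 of 6 called higher. The 3 striated muscle markers were all called higher, with a summed ratio of 17.4. None of these lists had a marker at 0 in either library, and their part in the levels of miR-191 and miR-425 was not tested.

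Base composition differed among the members and moved with the ratio among miRNAs at large. Over 180 known miRNAs with at least 100 counts and a RefSeq sequence, of 207 in all, GC content and the log2 ratio had a Spearman correlation of -0.42. Whether the 2 libraries differed in their preparation was not tested. The GC content was 52.2% for miR-191-5p, 54.5% for miR-191-3p, 47.8% for miR-425-5p and 61.9% for miR-425-3p. Among the 33 such miRNAs within 5 percentage points of miR-425-3p, the median log2 ratio was -0.25 and the upper quartile 0.14. Its own 1.45 lay above that quartile. However, miR-425-3p had only 16 and 40 counts, below the 100 counts required of these miRNAs. Level, arm and composition therefore cannot be told apart in this comparison. For miR-191-5p, the 61 miRNAs of like composition had a median of 0.11 and an upper quartile of 0.74. With the linear trend removed, the log2 ratios were 0.66 for miR-191-5p, 0.36 for miR-191-3p, 0.16 for miR-425-5p and 1.98 for miR-425-3p. Both 3p arms have fewer counts than the miRNAs that set the trend.

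**Figure D5:**
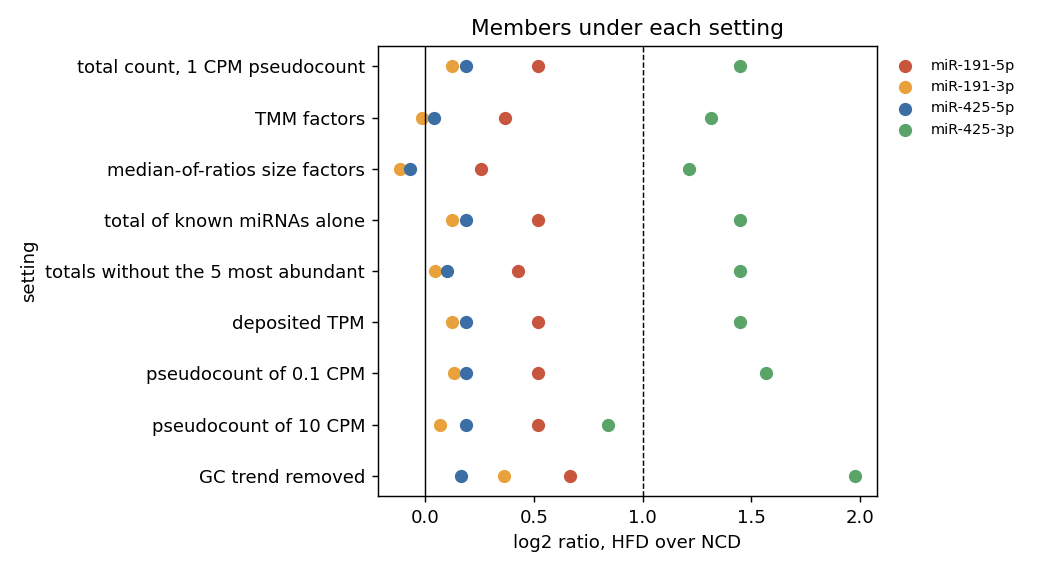
Log2 ratio of HFD over NCD of the 4 members under each setting of scaling, pseudocount and base composition. miR-425-3p is past 1 (dashed line) in all but the 10 CPM pseudocount (0.84), and miR-191-5p stays between 0.26 and 0.66. miR-425-5p runs from -0.07 to 0.19 and miR-191-3p from -0.11 to 0.36, both on either side of 0.

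The mature sequences were searched for short motifs reported to steer miRNAs into vesicles, read on the miRNA strand alone. GGAG occurred in 14.2% of the 1679 mature mouse sequences, CCCU in 11.4% and GGCU in 13.3%. Among the 338 measured known miRNAs with a sequence the shares were 11.5%, 7.99% and 14.8%. None of these 3 motifs stood in any of the 4 members, which says only that these letters are not in these sequences.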

How the data were processed

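Small RNA of islet exosomes was sequenced in 2 libraries, 1 per diet, with an NEBNext small RNA kit per the labels' protocols. The authors deposited whole-number counts per mature miRNA, TPM, p-values with an FDR, and a log2 fold change, per the file headers. The deposited TPM equalled counts per 1000000 of the table with no length scaling. The submitters' processing notes name GRCm38 as the genome build. No aligner, counting tool or statistical test is named in the labels or headers.

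CPM and log2 ratios of HFD over NCD were computed from the counts with a pseudocount of 1 CPM. Ratios carry exact (Clopper-Pearson) intervals given the summed count, shares exact binomial and levels exact Poisson intervals (scipy 1.17.1). A miRNA was measured at 10 counts or more in the larger library and called at 2-fold. The ratio code was tested on simulated data. edgeR 4.0.16 gave TMM factors and the match to the deposited p-values. DESeq2 1.42.0 gave median-of-ratios size factors, which were 1 for both libraries and so left the counts unscaled. Hairpins were folded with RNAfold 2.7.2. RefSeq sequences matched 595 of 677 known names and all 4 members. Members, lists and rules for names were chosen with earlier results of these data known. All 4 members, all measured reference miRNAs, the 5 nearest ratios and the rank neighbours could be named, and other miRNAs named were chosen after their values were seen.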

Additional observations from a re-analysis of the deposited data

How the results depend on the processing

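Of 90 comparisons of a value with its counterpart under another setting, 71 stayed within counting error or 1.5 times of the count. The log2 ratio of miR-191-5p was 0.37 with TMM factors, 0.26 with size factors by median of ratios, 0.43 with totals that leave out the 5 most abundant miRNAs, and 0.66 with the GC trend removed, an alternative chosen after seeing the data. That of miR-425-5p was 0.039, -0.071 and 0.099 under the first 3. The median of the reference list was 0.13, 0.022 and 0.19 under the same 3, and 2 of its members were lower with median-of-ratios size factors. Known miRNAs past 2-fold numbered 53 higher and 10 lower with a pseudocount of 10 CPM, 170 and 81 with no count minimum, 40 and 11 with at least 100 counts, and 60 and 81 with scaling to miR-191-5p. Scaling to known miRNAs alone and the deposited TPM moved no value beyond counting error. The deposited TPM equalled the CPM, and the total of known miRNAs shifted log2 ratios by a median of only -2.65e-05. The 9 comparisons of each could thus hardly move, and they are among the 71. The causes were not tested. The range of miR-425-3p was 0.84 to 1.98. The depth limits both 3p arms, with 16 to 40 counts each. No paired analysis was possible because there is 1 library per diet, and for the same reason no library could be left out.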
